A study of Aspergillus nidulans with 6 samples.

Results

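AtfA is a bZIP transcription factor, and the 250 regions described here are those where each of 6 AtfA ChIP-seq libraries held a peak. Peaks of the 6 lists were merged wherever they overlapped by at least 1 bp, which gave 707 regions, and a region was kept when it contained a peak of every library. These shared regions were therefore selected on measured values, the peak calls themselves, and their presence in the lists is a description and not a finding. The libraries came from conidia, the asexual spores of *Aspergillus nidulans*, harvested from surface cultures on agar under 3 conditions with 2 replicates each. MSB Tr. (3 d) conidia were 3 d old and had been grown with 0.04 mM menadione sodium bisulfite, which raises intracellular superoxide, Untr. (3 d) conidia were of the same age without it, and Untr. (2 d) conidia were 2 d old and untreated. All 6 libraries came from 1 strain, *atfA*::3XFLAG, with the markers *pyrG89* and *pyroA4* and with *veA*+, in which the deletion Δ*atfA*::*AfupyrG*+ was complemented by a vector carrying *pyroA*+ and *atfA*-3XFLAG under the native *atfA* promoter with the *trpC* terminator. Precipitation was with an anti-FLAG antibody directed at the tag, and no input or untagged control was used here.

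AtfA is the *A. nidulans* counterpart of Atf1 of fission yeast and binds DNA related to the cyclic AMP response element, a palindrome read by paired basic regions. In fungi such factors act below a stress-activated MAP kinase, HogA (also SakA) in aspergilli, and in conidia AtfA is known for its part in stress tolerance, spore viability and the expression of spore-specific genes. A ChIP-seq peak is a stretch where reads of precipitated DNA pile up, its summit is the point of highest coverage, and the score of a peak in these lists is taken here as the coverage at the summit after scaling to library size, a reading inferred from the values and the peak names. Each score was turned into a percentile within its own list, where values near 100 mark the highest peaks of a library. Percentiles do not show differences of score level between lists.

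The lists held between 434 and 473 peaks. All scores were whole multiples of 1 step per library within 1 score unit, and a step was read as 1 read over a 20 bp bin, which is an inference from the values. On that reading the lowest peaks of the lists had 31 to 203 reads at the summit and the highest 306 to 559, with a counting error of 7.02% to 18.0% at the lowest peaks. In MSB Tr. (3 d) the lowest peaks had 121 and 203 steps of 128.58 and 86.705 score units. In Untr. (3 d) they had 31 and 61 steps of 171.28 and 127.7 units. The MSB Tr. (3 d) lists thus began at higher scores than the Untr. (3 d) lists, which percentiles hide. The highest peak exceeded the lowest 4.47 and 2.75 times in the MSB Tr. (3 d) libraries, 9.87 and 6.85 times in Untr. (3 d) and 10.9 and 9.68 times in Untr. (2 d), so the MSB Tr. (3 d) lists covered a narrower range. The Untr. (2 d) replicates ranked the shared regions less alike than replicates of the other conditions did, as given below with the correlations.

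Shared regions stood high in every list. Between 55.4% and 60.6% of the peaks of a library lay in them, and so did 49 or 50 of its 50 best-scored peaks, but only 9 to 23 of its 100 lowest. Their median percentile was 72.0 and 70.2 in the MSB Tr. (3 d) libraries, 70.6 and 70.3 in Untr. (3 d) conidia, and 72.1 and 69.5 in Untr. (2 d). Averaged over the 6 libraries the percentile of a region ran between 16.6 and 99.8 with a median of 68.6. At the border of the rule, the 68 regions with a peak in 5 libraries had a median of 38.5 and a highest value of 71.3, at an unlinked region of chromosome VIII (2852861 to 2853380) that lacked a peak in Untr. (2 d) replicate 2 alone. That library was the one missing in 33 of these 68 regions, Untr. (3 d) replicate 1 in 17, Untr. (2 d) replicate 1 in 10, MSB Tr. (3 d) replicate 2 in 5, Untr. (3 d) replicate 2 in 3 and MSB Tr. (3 d) replicate 1 in 0. Untr. (2 d) replicate 2 was thus the only missing library more often than any other, and 283 regions were held by the other 5 libraries.

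**Figure D1:**
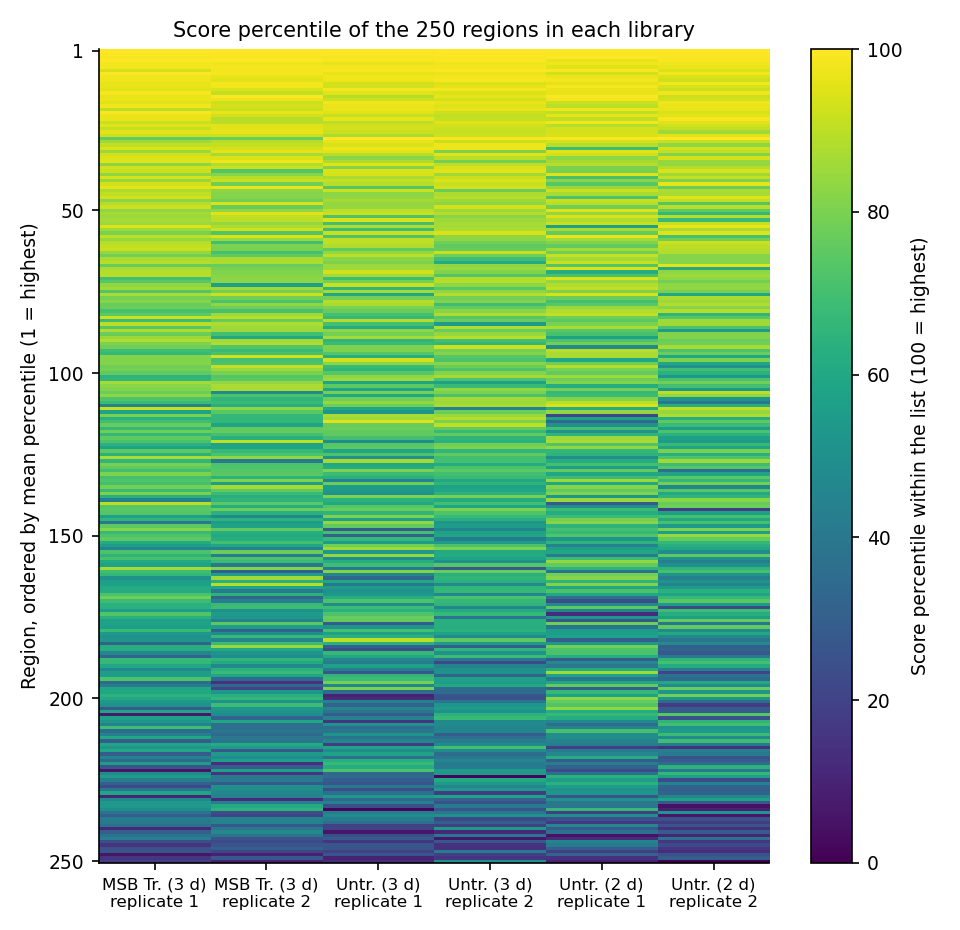
Score percentile within the list of each library (colour, 100 = highest) for the 250 regions held by all 6 libraries, 1 row per region ordered by mean percentile, with the 6 libraries as columns. The top rows are high in every library, and rows in the middle and at the bottom differ between libraries, 31 of them by more than 50 percentile points.

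The percentiles of a region lay closer together at the top of the lists than below it, where the scale, which ends at 100, sets less of a limit. In the 50 regions of highest mean percentile the SD over the 6 libraries had a median of 3.63 percentile points, against 8.51, 12.3, 15.1 and 14.7 in the following sets of 50. Some 20 regions were at or above percentile 90 in all 6 libraries and 49 at or above 75, while 46 fell below percentile 25 in at least 1 library. The range between the highest and the lowest library was under 10 points in 27 regions and over 50 points in 31. Membership in all 6 lists therefore covered regions that led every list and regions that were near the cut-off in some of them.

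Genes were tied to regions through the peak positions that the study lists for genes with an upstream peak, and 175 of the 250 regions were linked to 1 or more genes. A region without a link is called unlinked here, which says only that none of the listed genes could be placed at it. In all 153 regions had 1 linked gene, 21 had 2 and 1 had 4, and in 19 of the 21 pairs the genes lay on opposite strands with the peak in the upstream window of both. Linked and unlinked regions had like levels, with a median of the mean percentile of 68.5 and 70.2. Of all 438 genes linked to any region, 196 (44.7%) had a region held by all 6 libraries, the share given for reference beside the gene groups that follow. The gene groups were chosen with earlier results of these data known, so their counts are descriptions. A gene that was not linked may still have a peak that could not be placed, and counts are therefore given among the linked genes of a group. Genes with few listed peaks were harder to place, so shares among linked genes may be too high. Of the 234 genes placed by 5 or more listed peak centres at a single place, 187 had a shared region. The need for 5 or more centres itself raises that share, since the centres are those of the listed peaks.

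The region of highest mean percentile was that of *atfA* itself (chromosome VI, 2425601 to 2428120). Its percentile was 99.9 in each MSB Tr. (3 d) replicate, 99.5 and 99.9 in Untr. (3 d) libraries, and 99.9 and 99.7 in Untr. (2 d), which made it the top or nearly the top peak of each list. Its peaks were 2360 and 2340 bp wide in MSB Tr. (3 d), 2320 and 2400 bp in Untr. (3 d) spores, and 2300 and 2520 bp in Untr. (2 d), against a median of 448 bp over all 250 regions. In this strain *atfA* is deleted at its own locus, and the complementing vector carries *atfA*-3XFLAG with the *atfA* promoter. Reads of the deleted *atfA* sequence can therefore come only from the vector. Reads of promoter or flanking sequence left at the native locus map to the same place as those of the vector and cannot be told apart here. The other gene of that vector, *pyroA*, which is required for pyridoxine synthesis, was also linked to a shared region (chromosome IV, 2483721 to 2485040), with percentiles of 90.3 and 94.8 in MSB Tr. (3 d), 72.1 and 83.6 in Untr. (3 d) conidia, and 97.0 and 70.7 in Untr. (2 d). Its mean width of 900 ± 303 bp (SD, n = 6) was likewise above that median, and the part of the vector in the values at *atfA* and *pyroA* was not tested.

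Genes of conidial proteins followed at the top. The 2nd region (chromosome III, 3290901 to 3292580) was linked to 4 genes, *conF* for a conidiation protein of the Con-6 type, AN8639 for a putative trehalose-phosphate synthase, AN8641 and AN8642, and its percentile was 99.7 and 99.3 in MSB Tr. (3 d), 99.3 and 99.7 in Untr. (3 d) libraries, and 99.5 and 99.4 in Untr. (2 d). The region of *conJ*, the relative of the conidiation gene *con-10* of *Neurospora crassa*, had 98.8 and 99.0 in MSB Tr. (3 d), 98.6 and 99.0 in Untr. (3 d) spores, and 99.7 and 99.2 in Untr. (2 d). That of *ccgA*, which encodes a protein related to a glucose-repressible protein, had 99.4 and 99.7 in MSB Tr. (3 d), 99.0 and 99.4 in Untr. (3 d) conidia, and 96.2 and 99.0 in Untr. (2 d). These levels differed by at most a few percentile points between any of the 6 libraries.

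The catalase gene *catA*, whose product removes hydrogen peroxide in conidia, shared its region (chromosome III, 3295661 to 3296500) with *cetJ*, which encodes a protein with a hemerythrin domain. Its percentile was 98.3 and 98.5 in MSB Tr. (3 d), 98.4 and 98.1 in Untr. (3 d) libraries, and 95.2 and 97.1 in Untr. (2 d), so that the treated and untreated libraries of the same age overlapped. The opsin gene *nopA*, related to microbial rhodopsins, had 99.2 and 98.7 in MSB Tr. (3 d), 96.2 and 96.9 in Untr. (3 d) spores, and 93.0 and 98.4 in Untr. (2 d). AN3783, of unknown function, stood at 97.6 on average, and 3 unlinked regions on chromosomes V (2395781 to 2396340), I (2330301 to 2330940) and VII (2593401 to 2594120) completed the highest 10 with means of 97.2, 96.9 and 96.7. None of these 10 regions but that of *atfA* had a mean width over 1 kb.

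Genes enriched in conidia were all linked, and all 9 to shared regions. Beside *conF*, *conJ*, *ccgA* and *cetJ* these were *dlpA* (dehydrin-like protein, mean percentile 95.1 ± 2.63), SpoC1-C1D (85.9 ± 8.69) and SpoC1-C1C (65.9 ± 10.9) of a cluster of spore-specific genes, *cetA* (thaumatin-like secreted protein, 69.5 ± 16.9) and *awh11* (putative heat shock protein, 51.7 ± 17.9), each as mean ± SD over 6 libraries. They thus spread from the top of the lists to the middle. Of 11 central and early regulators of conidiation only *flbD* was linked, to a region of 1 library, and of 7 other developmental transcription factor genes only *fkhB*, to a region of 4 libraries. The other genes of these groups were not linked, and genes without a listed peak were not separated from genes that could not be placed. The study names *nsdD* and *silG*, both unlinked here, among its AtfA targets, so a missing link does not mean a missing peak.

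Genes of the stress signalling pathway were linked to shared regions, most of them at middle levels. Of 7 linked genes, among 11 listed, the 6 with shared regions were the phosphotransfer protein gene *ypdA*, the MAP kinase gene *hogA*, the phosphatase gene *ptpA*, the kinase gene *cmkD*, *atfA* and the bZIP gene *atfB*, while *pbsA*, for the MAP kinase kinase, had a region of 2 libraries. At *hogA* the percentile was 70.4 and 55.8 in MSB Tr. (3 d), 77.4 and 64.9 in Untr. (3 d) conidia, and 59.6 and 78.8 in Untr. (2 d), with no order among the conditions. At *ptpA* it was 84.8 and 90.4 in MSB Tr. (3 d), 72.1 and 82.0 in both of Untr. (3 d), and 94.8 and 88.9 in Untr. (2 d), with Untr. (3 d) lowest. The region of *atfB* was among the lower ones at 38.8 ± 10.8 (SD, n = 6), next to the 2 regions of *conF* and *catA*. Of 5 linked genes of other histidine kinases, sensors that feed such pathways, 4 had shared regions, with mean percentiles of 84.9 at hk-8-2, 81.9 at *hk2*, 66.6 at hk-8-7 and 47.4 at *phkB*. The only linked gene of protein kinase A signalling, *pkaA* for the catalytic subunit, stood at 62.3 ± 13.4.

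Further groups had members across the range. Of 2 linked genes of light sensing and photolyase *nopA* had a shared region and *cryA* one of 3 libraries. Among 3 linked velvet genes *velB*, for a regulator of development and secondary metabolism, had one at 90.9 ± 4.89, while *veA* and *vosA* had regions of 3 and 2 libraries. Of 5 eisosome genes, for plasma membrane domains, *pilA* was at 95.2 ± 2.54, *Nce102* at 80.3 ± 4.55 and *surG* at 51.9 ± 16.6, and *pilB* and *slmA* had regions of 4 and 2 libraries. Among 7 linked genes of trehalose and polyol metabolism 6 had shared regions, with *gldB* (glycerol synthesis) at 96.1 ± 1.99, the mannose-6-phosphate isomerase gene AN1715 at 91.2 ± 3.89, AN10499 at 81.2 ± 10.0, the glycerol kinase gene *gcnA* at 48.3 ± 25.6 and the mannitol dehydrogenase gene AN2815 at 47.7 ± 17.4, beside AN8639, and *orlA* had a region of 4 libraries. Of 6 linked genes of glycolysis and gluconeogenesis 3 had shared regions, *acuF* (phosphoenolpyruvate carboxykinase, mean percentile 74.1), *fbaA* (aldolase, 69.1) and *hxkB* (hexokinase-like protein, 45.3). Of 8 linked genes of the citric acid and glyoxylate cycles and of acetate use 4 had them, *facC* (carnitine acetyltransferase, 76.6), *acuD* (isocitrate lyase, 72.6), *idpA* (isocitrate dehydrogenase, 49.1) and *citA* (citrate synthase, 36.6), while *acoA* had a region of 5 libraries. Among 3 linked antioxidant genes 2 had shared regions, *catA* near the top and the thioredoxin gene *trxA* at 31.1 ± 11.8, and the superoxide dismutase gene *sodA* had a region of 3 libraries. The listed pigment, hydrophobin and penicillin genes were not linked. Over all 15 lists 40 genes were linked to shared regions among 58 linked to any region (69.0%), against the 44.7% of all linked genes given above. Both shares leave out genes that could not be placed, and the part of placement in their difference was not tested.

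At the other end of the range, the lowest mean percentile was that of AN6104 (chromosome I, 1248561 to 1249280). It had 18.0 and 9.23 in MSB Tr. (3 d), 13.1 and 50.0 in Untr. (3 d) spores, and 9.30 and 0.115 in Untr. (2 d), so its place among the shared regions rested on the last peaks of some lists. The region of *vps27*, for a putative protein of intracellular transport, stood at 18.7 ± 8.13, that of the putative reductase gene AN7590 at 19.5 ± 10.2 and that of the putative transcription factor gene AN3433 at 23.4 ± 9.77. AN7335, AN7640, AN6060 and 3 unlinked regions on chromosomes II (1776001 to 1776280) and VIII (1792121 to 1792440 and 4033881 to 4034320) completed the lowest 10, with means between 23.6 and 26.9.

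The rule did not use width as such, although wide peaks overlap more readily. The mean width of the best-scored peak had a median of 448 bp over the 250 regions and ran between 237 and 2373 bp. It was larger in shared regions than elsewhere in each library, with medians of 520 and 430 bp against 280 and 260 bp in MSB Tr. (3 d), 440 and 460 bp against 260 and 240 bp in Untr. (3 d), and 380 and 420 bp against 240 and 260 bp in Untr. (2 d). Wide peaks tended to be high ones, with a Spearman correlation of 0.64 over the 250 regions between mean width and mean percentile, both from the same coverage. The median of the mean width was 595 bp in the 50 highest regions, 500, 430 and 388 bp in the next sets of 50, and 342 bp in the 50 lowest. The narrowest regions were those of AN1330 and AN1331 (237 ± 26.6 bp, SD, n = 6), an unlinked one of chromosome II (240 ± 25.3 bp), AN7335 (240 ± 37.9 bp), *vps27* (247 ± 41.3 bp) and *trxA* (253 ± 61.5 bp), close to the 200 bp that was the narrowest peak of any list.

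**Figure D2:**
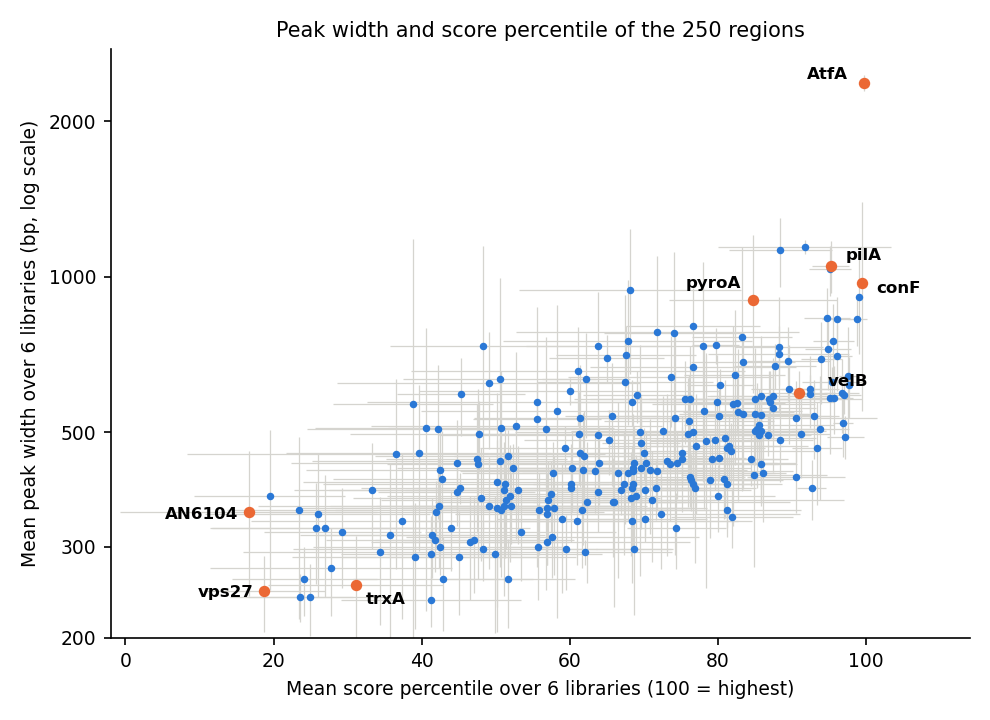
Mean peak width (bp, log scale) against mean score percentile for the 250 regions, 1 point each, with bars of 1 SD over the 6 libraries and 8 named regions in orange. Width rises with percentile, the *atfA* region stands apart at 2373 bp, and *conF*, *pilA* and *pyroA* lie near the upper edge.

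After *atfA*, the widest regions were 2 unlinked ones on chromosomes V (1615761 to 1616940, 1143 ± 36.7 bp) and VII (2199721 to 2201080, 1127 ± 170 bp), *pilA* (1050 ± 121 bp) and AN3627 (1033 ± 116 bp). These 5 were also the regions wider than 800 bp in all 6 libraries. The SD of the width was 3.36% of its mean at *atfA* and 3.21% at the unlinked region of chromosome V, the lowest values among the 250 regions, whose median was 19.7%. A wide mean could also come from a few libraries, as at *conF*, with 1540 and 720 bp in MSB Tr. (3 d), 660 and 900 bp in Untr. (3 d) conidia, and 560 and 1460 bp in Untr. (2 d).

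Summits of the 6 libraries lay close together in most shared regions. The distance between the outermost summits had a median of 70 bp, was at most 50 bp in 92 regions (36.8%), at most 100 bp in 168 (67.2%) and over 400 bp in 11. For 2 libraries at a time the median distance was 20 or 30 bp in each of the 15 pairs, which is 1 or 2 bins of the signal. The median offset from the median summit of a region was 0 bp in every library. The spread was smaller in high regions, with a median of 40 bp in the 50 of highest percentile and 100 bp in the 50 lowest. The tightest were *velB* and an unlinked region of chromosome I (1249981 to 1250880), each with 10 bp, in which 5 of the 6 summits coincided, and no region had a spread of 0.

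The stretch covered by the best peaks of all 6 libraries had a median length of 300 bp, 52.9% of the region, and existed in 243 of the 250 regions. All 6 summits lay inside it in 223. In 221 regions each library had exactly 1 peak, and in 29 at least 1 library had several. Of these 29, 15 were split in 1 library only and 0 in all 6, so splitting of a region was not shared by all libraries anywhere. The region of AN12261, split in 5 libraries, held 12 peaks, the most of any region, and its 6 best summits still fell within 30 bp.

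**Figure D3:**
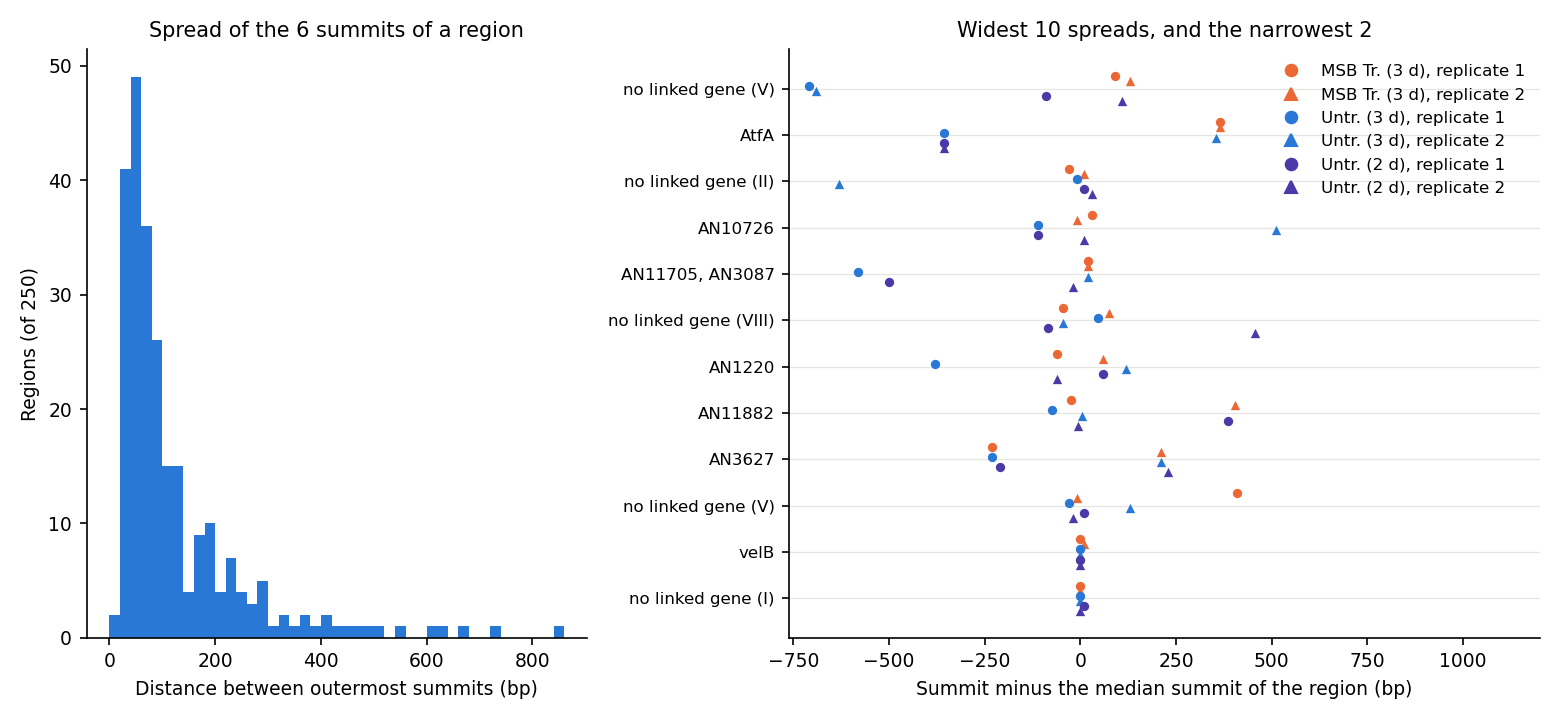
Left, distance between the outermost of the 6 summits (bp, bins of 20 bp) for the 250 regions. Right, summit of each library minus the median summit of its region (bp) for the 10 regions with the widest spread and the 2 with the narrowest, with colour for the condition and shape for the replicate. Most regions fall under 100 bp, and in the *atfA* region the libraries fall into sets of 3 that lie about 720 bp apart.

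Summits fell at separate positions in some of the regions with the widest spread. In the *atfA* region the summits of both MSB Tr. (3 d) libraries and of Untr. (3 d) replicate 2 lay within 10 bp of each other, and those of Untr. (3 d) replicate 1 and both Untr. (2 d) libraries at 1 other position, 720 bp from the farthest of the first. In the unlinked region of chromosome V (1615761 to 1616940) the spread was 840 bp, with offsets from the median of 90 and 130 bp in MSB Tr. (3 d), -710 and -690 bp in Untr. (3 d) libraries, and -90 and 110 bp in Untr. (2 d). The 2 regions with the steadiest width were thus also the 2 with the widest spread of summits. At AN3627 the summits lay at -230 and 210 bp in MSB Tr. (3 d), -230 and 210 bp in Untr. (3 d) spores, and -210 and 230 bp in Untr. (2 d), so that they fell into 2 positions by replicate number and not by condition. The unlinked region of chromosome II (1096501 to 1097940, 660 bp) and AN10726 (620 bp) owed most of their spread to 1 library, Untr. (3 d) replicate 2. The other wide spreads were 600 bp at AN11705 and AN3087, 540 bp in an unlinked region of chromosome VIII (4509041 to 4510080), 500 bp at AN1220, 480 bp at AN11882 and 440 bp in an unlinked region of chromosome V (2780061 to 2781120).

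No closer agreement of summits or ranks within conditions than between them could be shown, and the exact test used cannot reach the usual threshold here. The median summit distance averaged 23.3 bp over the 3 pairs within conditions and 22.5 bp over the 12 pairs between them, a difference of 0.83 bp (p = 0.933 in a one-sided exact permutation test over the 15 groupings of the libraries into pairs, which cannot give less than 0.0667). The Spearman correlation of scores over the 250 regions was 0.85 between the MSB Tr. (3 d) replicates, 0.84 between those of Untr. (3 d) and 0.58 between those of Untr. (2 d). Between conditions it ran between 0.58 and 0.80, and Untr. (2 d) replicate 1 was closest to MSB Tr. (3 d) replicate 2 (0.79), while Untr. (2 d) replicate 2 was closest to MSB Tr. (3 d) replicate 1 (0.80). The mean was 0.75 within and 0.71 between conditions, a difference of 0.044 (the same exact permutation test, one-sided, p = 0.267). Without Untr. (2 d) replicate 1 the difference was 0.119 and without Untr. (2 d) replicate 2 it was 0.147, each with the smallest p that the exact test allows, 0.0667.

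Conidia formed under MSB were compared with untreated ones of the same age to ask whether the oxidant shifts shared regions within the lists. The fit ran over the 296 regions with a peak in all 4 libraries, of which 250 were the shared ones. In that fit (limma with Benjamini-Hochberg adjustment) an unadjusted p under 0.05 was found in 42 shared regions and in 50 of all 296. At an adjusted p of 0.05, 1 shared region passed, against a background of 0.338% of regions called. This was the unlinked region of chromosome V (1615761 to 1616940), with percentiles of 76.0 and 77.2 in MSB Tr. (3 d) and 99.7 and 98.6 in Untr. (3 d), a difference of -22.5 ± 2.46 points (SE, limma adjusted p = 0.0359). The groups did not overlap there, and Untr. (2 d) libraries, not part of the test, had 98.8 and 99.9. Leaving out any of the 4 libraries ended the call, with adjusted p between 0.0571 and 0.338 and differences between -23.1 and -21.9 points, and so did summed scores of all peaks (0.0970) and the 300 best peaks alone (0.0839).

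Differences of single shared regions had a median size of 9.13 percentile points. The rule limits this size, since a region that fell below the cut-off of any list was not kept. Peaks lost or gained with MSB are therefore not among these differences. The signed median, which the ranking within each list holds near 0, MSB Tr. (3 d) minus Untr. (3 d), was 0.11 points over the shared regions and -0.24 over all 296. In 73 shared regions (29.2%) both MSB Tr. (3 d) libraries were higher than both Untr. (3 d) libraries, and in 63 (25.2%) both were lower. The background was 27.0% and 25.0% of all 296 regions tested. Of these 250 are the shared regions, so the shares could differ little. In the comparison by age, given below, both shares were 17.2% of the shared regions. The largest differences upward did not pass the adjusted test in percentile, but some did with log2 scores, as given after them. They were at an unlinked region of chromosome VII (2537301 to 2538120), with 86.0 and 81.0 in MSB Tr. (3 d) and 40.6 and 28.5 in Untr. (3 d), and at AN2471, with 64.8 and 63.0 in MSB Tr. (3 d) and 9.83 and 26.5 in Untr. (3 d) (limma adjusted p = 0.181 for both). The unlinked region of chromosome I (934981 to 935900) had 60.4 and 66.2 in MSB Tr. (3 d) and 13.1 and 25.3 in Untr. (3 d). The citrate synthase gene *citA* had 49.7 and 65.1 in MSB Tr. (3 d) and 1.80 and 26.5 in Untr. (3 d), and an unlinked region of chromosome III (2662101 to 2662560) 62.1 and 84.5 in MSB Tr. (3 d) and 31.4 and 30.4 in Untr. (3 d).

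The largest differences downward were smaller than those upward, between -42.0 and -29.6 points against 42.4 to 48.9. AN6397 had 35.4 and 14.7 in MSB Tr. (3 d) and 79.0 and 55.2 in Untr. (3 d), and AN10977, whose relatives are extracellular, had 45.7 and 43.6 in MSB Tr. (3 d) and 85.7 and 80.4 in Untr. (3 d). An unlinked region of chromosome VIII (4509041 to 4510080) had 53.1 and 45.6 in MSB Tr. (3 d) and 90.6 and 75.1 in Untr. (3 d). None of these 3 passed the test in percentile (limma adjusted p = 0.228, 0.181 and 0.189). At AN0833 the MSB Tr. (3 d) libraries stood at 5.96 and 57.3 and overlapped the 72.1 and 55.2 of Untr. (3 d), and at AN7325 they stood at 69.4 and 29.6, against 81.6 and 76.7 in Untr. (3 d). Both rested on 1 library, since without MSB Tr. (3 d) replicate 1 the difference at AN0833 was -6.36 and without MSB Tr. (3 d) replicate 2 that at AN7325 was -9.74. With log2 scores in place of percentiles 10 shared regions passed, of 11 called among all 296. They included the region of chromosome V (limma adjusted p = 5.3e-05), AN10977 (0.0212), the regions of chromosomes VIII (0.0253) and VII (0.0263), AN2471, *citA* and AN6397 (0.0453 each). The log2 scores were centred on each list median but not scaled to the range of the list. The highest peak exceeded the lowest 4.47 and 2.75 times in MSB Tr. (3 d), against 9.87 and 6.85 times in Untr. (3 d). The part of this narrower range in the log2 calls was not tested.

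**Figure D4:**
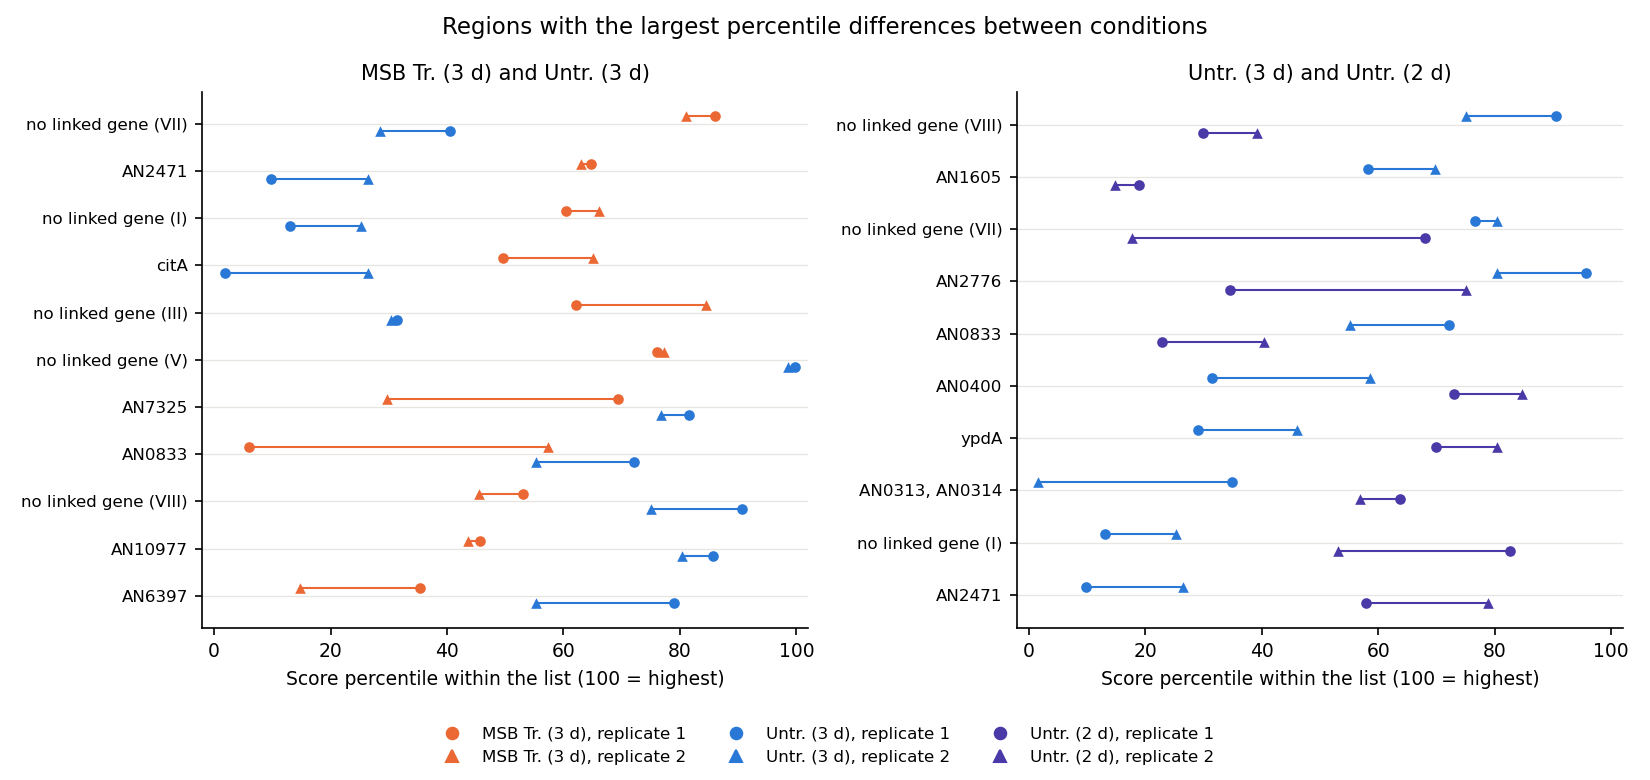
Score percentile within the list (x axis, 100 = highest) of both replicates of each condition, joined by a line, for the regions with the 5 largest differences in each direction, MSB Tr. (3 d) against Untr. (3 d) on the left, with the region of chromosome V that passed the test added, and Untr. (3 d) against Untr. (2 d) on the right. The replicates do not overlap between conditions in most rows, AN0833 on the left being an exception, and 1 region, on chromosome V, passed the adjusted test.

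The direction of a width difference with MSB was not stable over the whole set. The median log2 difference of width, MSB Tr. (3 d) minus Untr. (3 d), was 0.09 over the shared regions and 0.09 over all 296, and the whole lists differed too, with median widths of 400 and 360 bp in MSB Tr. (3 d) and 340 bp in both Untr. (3 d) lists. Relative to the list medians the difference over the shared regions was -0.07, and without MSB Tr. (3 d) replicate 1 it was -0.06, so the direction depends on the scaling and on 1 library. In 58 shared regions (23.2%) both MSB Tr. (3 d) peaks were wider and in 18 (7.2%) both were narrower, against 22.3% and 6.76% of all regions tested. In the fit (limma with Benjamini-Hochberg adjustment) an unadjusted p under 0.05 was found in 18 shared regions and in 23 of all 296. At an adjusted p of 0.05, 2 shared regions passed, with a background of 0.676%. The unlinked region of chromosome II (1096501 to 1097940) was 1300 and 1180 bp wide in MSB Tr. (3 d) and 500 bp wide in both Untr. (3 d) libraries, a log2 difference of 1.31 ± 0.16 (SE). The unlinked region of chromosome V (2780061 to 2781120) was 1040 and 1000 bp wide in MSB Tr. (3 d) and 280 and 300 bp in Untr. (3 d), a log2 difference of 1.82 ± 0.20, with a limma adjusted p of 0.0450 for both. In the first, both Untr. (3 d) libraries had 2 peaks where those of MSB Tr. (3 d) had 1, and with the covered length of all peaks the difference was 0.29 (limma adjusted p = 0.598). Neither call held when any of the 4 libraries was left out (limma adjusted p between 0.217 and 0.461).

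Untreated conidia of 3 d and 2 d were compared for the effect of age, and this comparison shares its Untr. (3 d) libraries with that of MSB. Over the 263 regions with a peak in all 4 libraries, 0 passed in percentile and 0 in width (limma with Benjamini-Hochberg adjustment, background 0% in each). Regions that lacked a peak in any of these libraries were not fitted, so lost or gained peaks were not assessed. An unadjusted p under 0.05 was found in 12 shared regions for either measure, against 12 of all 263 in each. The median difference, Untr. (3 d) minus Untr. (2 d), was 0.86 percentile points over the shared regions and 0.89 over all 263. Without Untr. (2 d) replicate 1 or 2 it was 0.53 and -0.78 points over the shared regions, and 0.03 and 0.16 in log2 width. Both Untr. (3 d) libraries were higher in 43 shared regions (17.2%) and lower in 43 (17.2%), against 17.5% and 16.7% of all regions tested. Both were wider in 57 (22.8%) and narrower in 25 (10.0%), against 22.1% and 9.89%.

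Regions that are extreme in the shared Untr. (3 d) libraries are extreme in both comparisons. The unlinked region of chromosome VIII (4509041 to 4510080) had 90.6 and 75.1 in Untr. (3 d) and 29.8 and 39.2 in Untr. (2 d), and AN1605 had 58.2 and 69.7 in Untr. (3 d) and 18.9 and 14.7 in Untr. (2 d). AN2471 had 9.83 and 26.5 in Untr. (3 d) and 57.9 and 78.8 in Untr. (2 d), and the unlinked region of chromosome I (934981 to 935900) had 13.1 and 25.3 in Untr. (3 d) and 82.7 and 53.0 in Untr. (2 d). At the regions of chromosomes VIII and I and at AN2471 the Untr. (3 d) libraries stood apart from both other conditions. The phosphotransfer gene *ypdA* had 29.1 and 46.0 in Untr. (3 d) and 70.0 and 80.3 in Untr. (2 d), with 81.9 and 75.6 in MSB Tr. (3 d), and the unlinked region 1060 bp from it, the 1st of the upward list for MSB, was likewise lowest in Untr. (3 d). The region of AN0313 and AN0314 had 34.9 and 1.55 in Untr. (3 d) and 63.7 and 56.9 in Untr. (2 d), and AN2776 had 95.7 and 80.4 in Untr. (3 d) and 34.6 and 75.1 in Untr. (2 d). AN0400, AN0833 and an unlinked region of chromosome VII (2587781 to 2588280) completed the 10 largest differences, all with a limma adjusted p of 0.828. Single Untr. (2 d) libraries weighed heavily on some of them, the difference at AN2776 being 12.9 without replicate 1 and 53.5 without replicate 2, and that at the region of chromosome VII 60.9 without replicate 1 and 10.5 without replicate 2.

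Shared regions lay on all 8 chromosomes. Chromosome III held 44 of its 96 merged regions (45.8%), chromosome VIII 43 of 121 (35.5%) and chromosome IV 14 of 49 (28.6%), the lowest share. The gap to the next shared region had a median of 62230 bp and ran between 280 and 735140 bp, while neighbouring regions among all 707 had a median gap of 22300 bp. Neighbours within 10 kb made up 54 of 242 gaps (22.3%) among shared regions and 243 of 699 (34.8%) among all regions, the shared set being the sparser one, and 46 gaps were over 200 kb. On chromosome III 17 of 43 gaps were within 10 kb, and on chromosome IV 0 of 13.

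**Figure D5:**
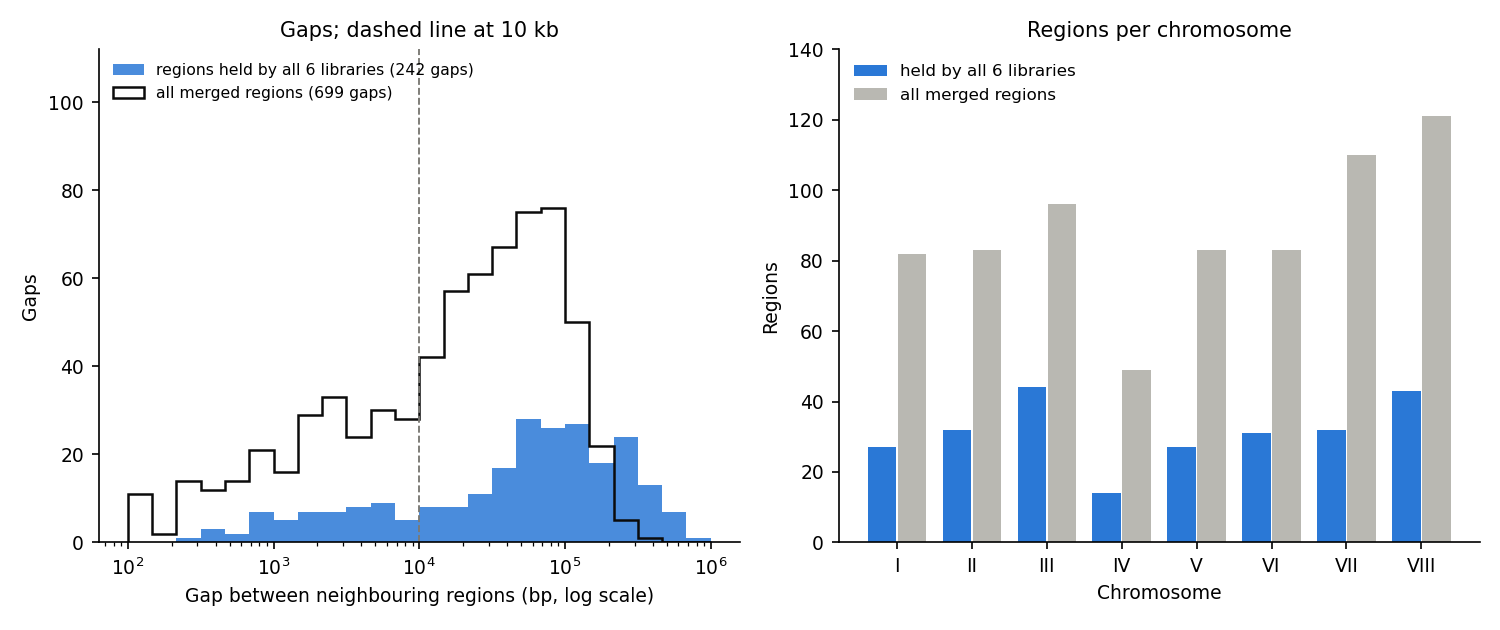
Left, gaps between neighbouring regions on a chromosome (bp, log scale) for the 250 shared regions (filled) and all 707 merged regions (line), with 10 kb dashed. Right, number of shared and of all merged regions on each chromosome. Shared regions have 54 of 242 gaps within 10 kb, and chromosome III holds the most shared regions, 44, although chromosome VIII has the most merged regions, 121.

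Runs of shared regions with gaps within 10 kb numbered 34 and took in 88 of the 250 regions, and 22 of the runs were pairs. The run with the most regions had 6 in 17220 bp near one end of the chromosome III sequence (22001 to 39220), among them SpoC1-C1D and SpoC1-C1C, with mean percentiles between 58.3 and 93.8. A run of 5 in 16580 bp on chromosome VIII included AN0288 and AN0285. The run of 4 at *atfB*, *conF*, *catA* and AN8636 on chromosome III spanned 16340 bp and joined regions of very different rank, from 38.8 at *atfB* to 99.5 at *conF*. A second run of 4 on chromosome III covered 5240 bp with AN4989 and AN4988, and 1 on chromosome VII covered 13420 bp with AN2469, AN2470, AN2471 and *mstB*, a putative sugar transporter gene. The closest neighbours were *mstB* and an unlinked region at 280 bp, an unlinked region and AN7990 at 360 bp, regions both linked to AN4988 at 380 bp, regions both linked to AN9168 at 440 bp, and an unlinked region and AN10631 at 480 bp.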

How the data were processed

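Conidial AtfA ChIP-seq reads (single-end) were aligned by the authors with Bowtie2 to the *A. nidulans* FGSC A4 genome, cleared of duplicates with SAMtools and Picard, and scaled to RPKM coverage with deepTools. The deposited lists, called by MACS2 for each library separately, hold each peak's start, end, summit and a score, read here as the signal at the summit. The 3 further value columns hold 0 throughout. The genome is the one that the study names, of JGI MycoCosm (Aspnid1), and coordinates are those of the lists, written 1-based.

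Peaks were merged at 1 bp of overlap, and the best-scored peak of a library in a region gave percentile, width and summit. Of 502 genes listed by the study with peak centres, 234 were placed by 5 or more centres at a single place, 204 between placed neighbours, and 64 were not linked. Conditions were compared with limma 3.58.1 (trend) in R 4.3.3 and Benjamini-Hochberg adjustment, after a check of the code on simulated data. The simulated shifts were larger than any difference found here, so that check does not show how well smaller ones are detected. The study calls its replicates biological without saying how cultures were separated, so p-values measure the spread between these libraries. Regions named were the 10 highest and 10 lowest in mean percentile, the 5 widest and narrowest, the 10 of widest summit spread, the 5 largest differences in each direction, the 5 closest pairs and those of the gene lists. *pyroA*, AN12261, AN2488, the 2 tightest summits, the runs and the called widths were named after their values were seen. Alternatives were other overlaps, scales, widths and peak numbers, left-out libraries and a replicate block. Promoter sequences were not analysed here. Regions, lists and tests were chosen with earlier results of these data known.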

Additional observations from a re-analysis of the deposited data

How the results depend on the processing

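The count of 250 shared regions was 235 with an overlap of 50% of both peaks, 249 with peaks within 100 bp joined, 173 with the 300 best peaks of each list, and between 250 and 283 without each library. In the comparison of MSB Tr. (3 d) with Untr. (3 d), the 1 shared region called in percentile became 10 with log2 scores, 0 with summed scores, 0 with the 300 best peaks and 0 without any 1 replicate. The 2 called in width became 1 with the covered length, 4 relative to the list median and 0 without any 1 replicate. With the replicate number as a block the counts were 31 in percentile, among them 9 of the 10 named for their size (all but AN0833, limma adjusted p = 0.0828), and 4 in width. Over all 296 regions fitted the counts were 11 with log2 scores, and with the block 35 in percentile and 5 in width. No label says that the numbers pair cultures. Over the shared regions, differences between replicate 1 and replicate 2 correlated between MSB Tr. (3 d) and Untr. (3 d) at 0.24 in percentile and -0.08 in log2 width, between MSB Tr. (3 d) and Untr. (2 d) at -0.40 and -0.43, and between Untr. (3 d) and Untr. (2 d) at -0.29 and 0.02. In the comparison of Untr. (3 d) with Untr. (2 d), the count stayed 0 in percentile and in width under all alternatives run. The difference of summit distance was 0.83 bp, 1.67 bp with the replicate block, 1.67 bp with single-peak regions, -1.67 bp with peak centres and between -2.5 and 3.75 bp without each replicate. That of rank correlation was 0.072 with the replicate block, 0.065 with widths and between -0.019 and 0.147 without each replicate. No exact p was below 0.0667. The spacing count of 54 stayed within 53 and 54, and 39 of the 40 listed genes had a single possible placement. The causes of these changes were not tested. Fits without a replicate assume that the lone library varies like the others. The number of inferred reads at a summit limits the precision. It was 59 to 335 at the median peak, fewer in every untreated library than in both MSB Tr. (3 d) libraries. The part of sequencing depth in this difference was not tested.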

Other observations

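Among the 250 shared regions, 2 had summits that split by replicate number by more than 100 bp in all 3 conditions. One was that of AN3627, where the summits of the replicates 1 lay within 20 bp of each other, those of the replicates 2 within 20 bp of each other, and the medians of both sets 440 bp apart. The other was that of AN2488 on chromosome VII (4108981 to 4109800), with offsets from the median summit of -95 and 125 bp in MSB Tr. (3 d), -155 and 75 bp in Untr. (3 d) conidia, and -75 and 125 bp in Untr. (2 d). These regions were named after their values were seen, and no test was made.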
